A study of Mus musculus with 48 samples.

Results

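Apolipoproteins are the protein part of lipoproteins, the particles in which lipids travel through blood and other body fluids. 10 genes of this family, Apoa1, Apoa2, Apoa4, Apoa5, Apob, Apoc1, Apoc3, Apod, Apoe and Apoh, were chosen by symbol from the 22055 genes listed in all 4 deposited tables, by a rule that uses no measured value. All 10 were found. The study measured messenger RNA by RNA-seq of polyadenylated RNA and ribosome occupancy by Ribo-seq in 6 tissues of wild-type C57BL/6 mice. Ribo-seq sequences the short RNA fragments, or footprints, that ribosomes shield from nuclease. Brain, retina, heart, kidney, liver and lung were taken on embryonic day 15.5 (E15.5) and on postnatal day 42 (P42), and no allele or treatment is given for any group; the buffer in which frozen tissue was lysed held cycloheximide, which halts ribosomes. Crossing 6 tissues, 2 stages and 2 assays gives 24 groups, each with 2 biological replicates, or 48 libraries. Whether a replicate pooled several embryos or animals is not given in the sources used here. Values are TPM, each library's read density per exon length scaled to a common total. Levels of different genes can thus be compared by RNA-seq. Footprints fall on coding bases only, which make up from 22.0% (Apod) to 96.99% (Apob) of the members' exon bases. Ribo-seq levels of different genes therefore also depend on that share.

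Apoa1 and Apoa2 encode the main proteins of high-density lipoprotein, and apolipoprotein A-I also activates the enzyme that esterifies cholesterol there. Apob encodes the large structural protein of very-low-density lipoprotein and chylomicrons, made in liver and intestine. Apoc1, Apoc3, Apoa4 and Apoa5 encode exchangeable proteins that act on lipases and on the uptake of remnants: apolipoprotein C-III slows lipolysis and clearance, and apolipoprotein A-V promotes lipolysis. Apoe encodes the ligand by which remnants bind receptors of the LDL receptor family, and in the central nervous system it is made mainly by glia. Apod encodes a lipocalin, a small carrier of lipophilic ligands unrelated in sequence to the other members, and Apoh encodes beta-2-glycoprotein I, a plasma protein that binds anionic phospholipids.

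The members lie on 6 chromosomes in the GENCODE M21 annotation of GRCm38, and 2 groups of them are neighbours. Apoa1 (chr9:46228580-46230466, plus strand), Apoc3 (chr9:46232933-46235636, minus strand), Apoa4 (chr9:46240696-46243459, plus strand) and Apoa5 (chr9:46268633-46271919, plus strand) occupy a span of 43340 bases on chromosome 9. Apoc1 (chr7:19689481-19692660) and Apoe (chr7:19696109-19699188) lie on the minus strand of chromosome 7 with 3448 bases between them. Apoa2 lies at chr1:171225054-171226379, Apob at chr12:7977648-8016835, Apod at chr16:31296192-31314808 on the minus strand and Apoh at chr11:108343354-108414396. Apob has 29 exon blocks and 13934 exon bases, against 537 to 2577 in the other 9. Exons of Apoa4 and Apoa5 overlap antisense genes and those of Apoh overlap Prkca by 30 bases, and whether the counting used strand is not given in the sources used here.

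TPM keeps no read total, so the depth of the libraries is unknown and no counting interval can be given. Liver and P42 kidney carried their defining genes by RNA-seq. The 26 hepatocyte markers summed to 70966 to 80379 TPM in E15.5 liver and 164972 to 176124 TPM in P42 liver. The 8 proximal tubule markers summed to 46532 to 67243 TPM in P42 kidney. Some libraries also carried markers of other tissues, as given below. Every change below is the P42 mean minus that of E15.5 in units of log2(TPM + 1), with its standard error (SE) from limma, which pooled the spread over all groups of an assay. Genes were called higher or lower where the change was at least 1 in size with an adjusted p under 0.05. With a pseudocount of 1 TPM, a change that starts near 0 is understated. The median gene itself shifted. By RNA-seq its change was -1.61 in heart, -1.11 in lung, -0.89 in liver, -0.81 in kidney, -0.60 in brain and -0.23 in retina, and by Ribo-seq -1.01, -0.21, -0.85, -0.74, -0.01 and 0.08 in that order. Each stage has its own deposited table per assay, so stage and table cannot be told apart. Beside counts of members, the background gives the share of all genes tested that were called the same way.

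Liver held the highest mean level of 9 of the 10 members at both stages and in both assays, and the embryonic liver made a different mixture from the adult one. At E15.5 the RNA-seq levels of Apoa1 and Apoa2 led, followed by Apoe, Apoh, Apob and Apoc1, while Apoc3, Apoa5, Apoa4 and Apod were close to 0. At P42 Apoa2 and Apoa1 still led, Apoe and Apoc1 came next, Apoc3 and Apoh followed, and Apoa5, Apob and Apoa4 came last but for Apod. Summed over the 10 members, the share of the TPM total in liver was 1.11% and 1.13% in the 2 E15.5 RNA-seq libraries and 8.53% and 10.0% in the 2 P42 libraries. In Ribo-seq it was 1.76% and 1.61% at E15.5 and 4.38% and 6.08% at P42. The listed genes hold 48.9% to 93.4% of the TPM total of an RNA-seq library and 23.1% to 61.1% of that of a Ribo-seq library. As a share of the listed genes alone, the members made up 1.59% and 1.68% at E15.5 and 9.38% and 11.2% at P42 by RNA-seq. By Ribo-seq this share was 2.98% and 2.76% at E15.5 and 10.1% and 10.0% at P42, so that the gap between the assays at P42 depends on the total taken. Outside liver the share of the TPM total never passed 0.301% by RNA-seq or 0.17% by Ribo-seq in any library.

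**Figure D1:**
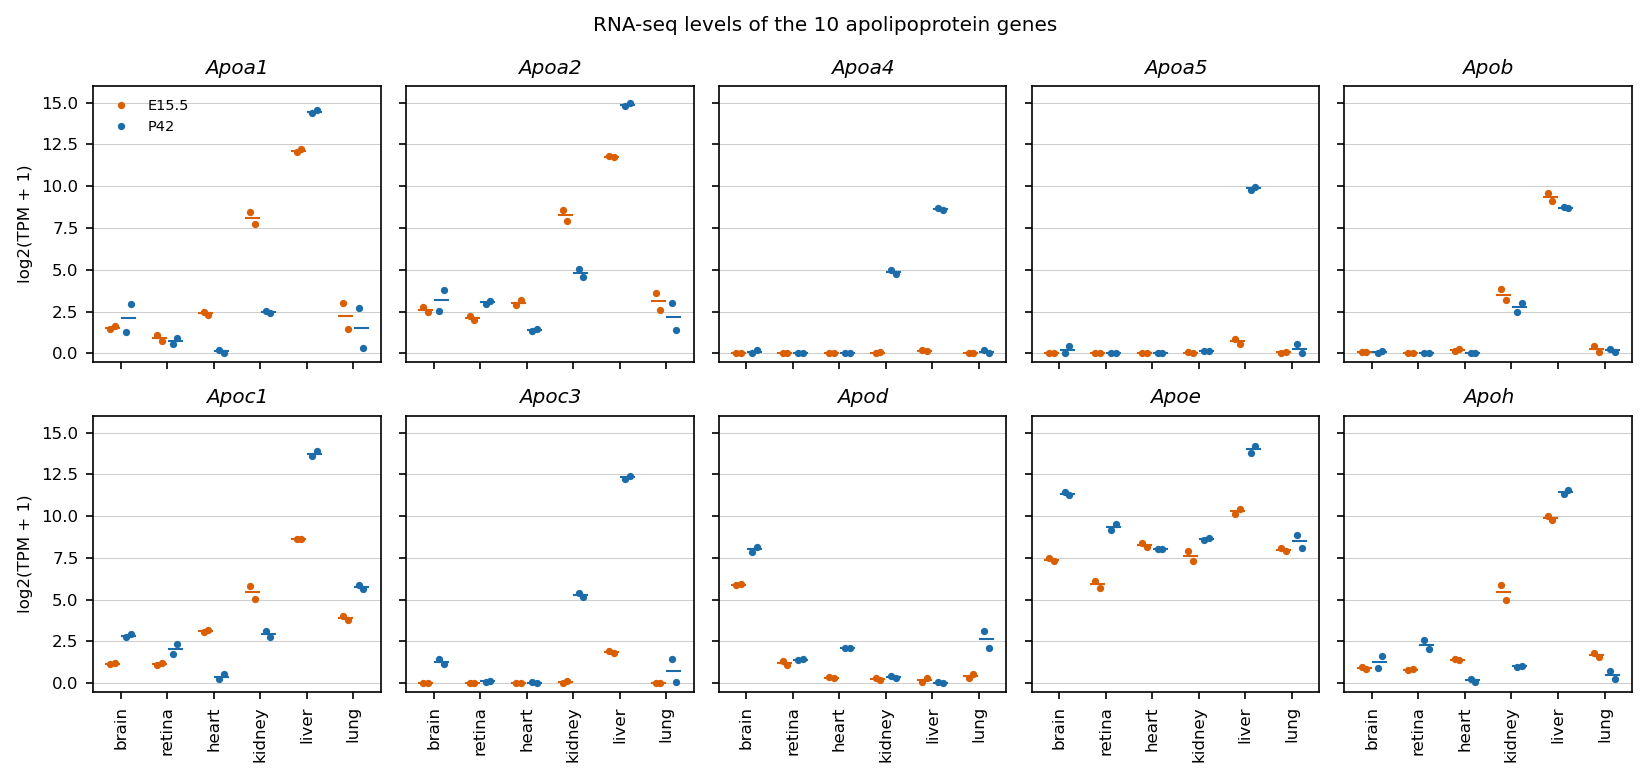
RNA-seq levels of the 10 members on the log2(TPM + 1) scale in 6 tissues, E15.5 in orange and P42 in blue. Points are the 2 libraries of a group and bars their mean; liver is highest for every member but Apod, which is highest in brain at 232 and 284 TPM at P42.

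Between the stages in liver, 8 of 9 tested members were higher at P42 by RNA-seq and none was lower, where 13.4% of all 12967 genes tested were higher and 47% lower. By Ribo-seq 7 of 10 were higher and none was lower, where 10.3% of 11274 genes were higher and 44% lower. The median change of the members tested was 3.72 by RNA-seq and 1.92 by Ribo-seq. The hepatocyte markers moved in the same libraries: albumin (Alb), the most abundant hepatocyte secretory message, was at 34971 and 29637 TPM at E15.5 and 96773 and 87929 TPM at P42 by RNA-seq, and at 57475 and 49897 and 61358 and 73121 TPM by Ribo-seq. The 10 erythroid markers summed to 109358 to 123987 TPM in E15.5 liver and 554 to 818 TPM in P42 liver by RNA-seq, and their part in the result was not tested. In whole tissue, fewer cells of a type and less RNA per cell cannot be told apart.

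The genes of the high-density lipoprotein proteins rose by message, and less by footprint. Apoa1 stood at 4199.6 and 4760.3 TPM in the 2 E15.5 liver libraries and 21584 and 23767 TPM in the 2 P42 libraries by RNA-seq, a log2 change of 2.34 (SE 0.458, adjusted p = 2.38e-05). Its Ribo-seq levels were 5867 and 5515 TPM at E15.5 and 7794 and 10590 TPM at P42, a change of 0.68 (SE 0.38, adjusted p = 0.113) that was not called. Over the scalings tried this footprint change ran from 0.68 to 1.90 and was called higher under 2. The stages did not overlap in either assay. Apoa2 went from 3569 and 3387 to 28063 and 31749 TPM by RNA-seq, a log2 change of 3.10 (SE 0.348, adjusted p = 8.91e-10). By Ribo-seq it went from 6212 and 5437 to 16524 and 22739 TPM, a log2 change of 1.74 (SE 0.331, adjusted p = 9.01e-05). At P42 every liver library of Apoa2 thus lay above every E15.5 library in both assays. Per 100 TPM of albumin, the mean level of Apoa2 by RNA-seq was 10.8 at E15.5 and 32.4 at P42, and that of Apoa1 was 13.9 and 24.6.

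The 3 members that act on lipolysis from the chromosome 9 group were close to absent in E15.5 liver and abundant in P42 liver. Apoa4 was at 0.166 and 0.0771 TPM in E15.5 liver and 408 and 377 TPM in P42 liver by RNA-seq, a log2 change of 8.45 (SE 0.151, adjusted p = 3.81e-31). Its footprints went from 0.0854 and 0.123 to 208 and 240.2 TPM, a log2 change of 7.67 (SE 0.22, adjusted p = 7.31e-17). Apoa5 was at 0.778 and 0.50 TPM at E15.5 and 886 and 985 TPM at P42 by RNA-seq, a log2 change of 9.16 (SE 0.164, adjusted p = 3.81e-31), and its footprints changed by 8.74 (SE 0.292, adjusted p = 7.3e-16) to 611 and 889 TPM. Apoc3 had the largest RNA-seq change of the 10, 10.45 (SE 0.239, adjusted p = 2.63e-28), from 2.83 and 2.49 to 4778 and 5467 TPM. Its footprints changed by 8.33 (SE 0.331, adjusted p = 1e-14), from 5.71 and 4.01 to 1436 and 2422 TPM. These rises were larger than that of albumin: per 100 TPM of albumin by RNA-seq, Apoc3 was at 0.00823 at E15.5 and 5.55 at P42, and Apoa5 at 0.00198 and 1.01. Apoa1, in the same span of chromosome 9, was already among the most abundant members in E15.5 liver.

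RefSeq promoter windows on GRCm38.p6, from 250 bases before to 50 after a gene's start, were matched for 8 members, and 4 are shown because their genes behaved differently in liver or lay outside it: Apoa4 and Apoa5 rose from below 1 TPM, Apob was high at both stages and Apod was near 0. They are written 5′ to 3′ on the gene's strand, in lower case, with matches to the motifs below in capitals.
Apoa4 promoter, chr9:46240594-46240893, plus strand: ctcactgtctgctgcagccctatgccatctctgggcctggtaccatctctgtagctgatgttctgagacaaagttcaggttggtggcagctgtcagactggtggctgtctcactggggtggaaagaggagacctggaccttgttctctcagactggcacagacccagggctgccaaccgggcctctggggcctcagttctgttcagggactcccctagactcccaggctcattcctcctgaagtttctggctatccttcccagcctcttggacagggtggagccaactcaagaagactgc
Apoa5 promoter, chr9:46268383-46268682, plus strand: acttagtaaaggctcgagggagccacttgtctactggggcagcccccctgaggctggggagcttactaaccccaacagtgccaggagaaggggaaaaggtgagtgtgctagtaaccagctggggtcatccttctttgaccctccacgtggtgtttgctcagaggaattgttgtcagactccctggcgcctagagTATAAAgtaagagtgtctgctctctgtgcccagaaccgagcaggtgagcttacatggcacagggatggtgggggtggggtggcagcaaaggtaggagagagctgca
Apob promoter, chr12:7977427-7977726, plus strand: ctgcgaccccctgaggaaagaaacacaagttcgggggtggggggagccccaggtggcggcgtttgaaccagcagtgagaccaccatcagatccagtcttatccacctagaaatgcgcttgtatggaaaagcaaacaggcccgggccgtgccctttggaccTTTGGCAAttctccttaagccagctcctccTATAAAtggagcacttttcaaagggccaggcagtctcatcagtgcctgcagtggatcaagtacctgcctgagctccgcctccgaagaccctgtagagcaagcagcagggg
Apod promoter, chr16:31314759-31315058, minus strand: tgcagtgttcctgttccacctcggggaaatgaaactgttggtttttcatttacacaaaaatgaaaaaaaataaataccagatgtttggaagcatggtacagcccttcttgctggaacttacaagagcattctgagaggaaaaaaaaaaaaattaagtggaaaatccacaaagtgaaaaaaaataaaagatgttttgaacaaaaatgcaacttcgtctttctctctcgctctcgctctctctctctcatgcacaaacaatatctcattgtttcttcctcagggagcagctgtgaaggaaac

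The letters TATAAA were found in 3 of the 8 windows, those of Apoa2, Apoa5 and Apob, and in 13.6% of the 32851 promoters of the table. A match to the C/EBP letters TTGCNNAA was found in Apob alone (all promoters 10.8%), the nuclear receptor letters AGGTCA in Apoh alone (16.3%) and CCAAT in Apoa2 alone (37.4%). The HNF4A letters CAAAGTCCA (all promoters 0.475%) and the HNF1 letters GTTAAT (7.1%) had no match in the 8 windows. Both strands were searched, none of the printed matches overlap, and a match is a description of letters, not of a bound site. The Apoa4 and Apoa5 windows, whose genes rose together, shared none of the 6 motifs.

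Of the members already present at E15.5, Apoc1 and Apoe rose most by RNA-seq. Apoc1 was at 394 and 392 TPM at E15.5 and 12357 and 15164 TPM at P42 by RNA-seq, a log2 change of 5.12 (SE 0.227, adjusted p = 3.83e-20). Its footprints went from 543 and 599 to 5857 and 7005 TPM, a log2 change of 3.49 (SE 0.331, adjusted p = 9.89e-09). Apoc1 and Apoe are neighbours, and both rose in both assays. Apoe went from 1137 and 1366 to 14227 and 19013 TPM by RNA-seq, a log2 change of 3.72 (SE 0.244, adjusted p = 1.8e-15). By Ribo-seq it went from 2383 and 2159 to 7814 and 11986 TPM, a log2 change of 2.09 (SE 0.255, adjusted p = 3.56e-07). Apoh, the phospholipid-binding plasma protein, was at 1012 and 869 and then 2570.3 and 3090.3 TPM by RNA-seq, a log2 change of 1.59 (SE 0.249, adjusted p = 6.74e-07). Its footprints, at 1739 and 1605 TPM at E15.5 and 2202 and 2917 TPM at P42, changed by 0.60 (SE 0.296, adjusted p = 0.0718) and were not called. Over the scalings tried the footprint change of Apoh ran from 0.60 to 1.82 and was called higher under 2. The rise of Apoh by RNA-seq was close to that of albumin, since its level per 100 TPM of albumin was 2.91 at E15.5 and 3.06 at P42.

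Apob, the structural gene of the triglyceride-rich particles, was the exception by message. It stood at 781 and 558 TPM in E15.5 liver and 434 and 406 TPM in P42 liver by RNA-seq, a log2 change of -0.65 (SE 0.207, adjusted p = 0.00459) that did not reach the size needed for a call. Its footprints were at 869.5 and 800.2 TPM at E15.5 and 1358 and 2055 TPM at P42, a change of 1.00 (SE 0.348, adjusted p = 0.0137) at the edge of the threshold. Without replicate 2 of the P42 liver Ribo-seq group the footprint change was 0.70 (adjusted p = 0.136), and without replicate 2 of the E15.5 group it was 0.94 (adjusted p = 0.0636), so neither was called. Across the scalings tried, the RNA-seq change of Apob ran from -1.05 to 0.53 and so had no fixed sign. Per 100 TPM of albumin, Apob was at 2.07 and 0.455 by RNA-seq and at 1.56 and 2.54 by Ribo-seq. Apod was not tested in liver by RNA-seq, where it was at 0.0586 and 0.245 TPM at E15.5 and 0.0367 and 0.0163 TPM at P42.

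Against each of the other 5 tissues at the same stage, 7 of 10 members were higher in liver at E15.5 in both assays, namely Apoa1, Apoa2, Apob, Apoc1, Apoc3, Apoe and Apoh. The background was 6.26% of 17171 genes by RNA-seq and 6.22% of 16715 by Ribo-seq. At P42 it was 9 of 10 in both assays, with Apoa4 and Apoa5 added and Apod the exception, against 3.42% and 3.27% of all genes. The change in liver was then compared with the mean change of the other 5 tissues in 1 model. By RNA-seq it was larger in liver for 8 members (background 17.8%) and smaller for Apod (background 18.8%). The difference was 9.05 (SE 0.162, adjusted p = 6.48e-22) for Apoa5, 8.97 for Apoc3, 7.44 for Apoa4, 5.27 for Apoc1 and 1.99 for Apoe. For Apob it was -0.45 (SE 0.227, adjusted p = 0.0883) and was not called. By Ribo-seq 8 members were called higher in this comparison (background 6.96%), from 1.00 for Apob to 7.35 for Apoa5, and Apoe, at 0.81 (SE 0.276, adjusted p = 0.0208), was not called. Over the scalings tried the Apoe difference ran from 0.81 to 1.46 and was called higher under 3. The Apob value sits at the size threshold, with adjusted p = 0.0392, and was not called when any 1 of 13 of the 24 Ribo-seq libraries was left out, with values from 0.71 without replicate 2 of the P42 liver group to 1.06 without replicate 1 of the E15.5 liver group.

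**Figure D2:**
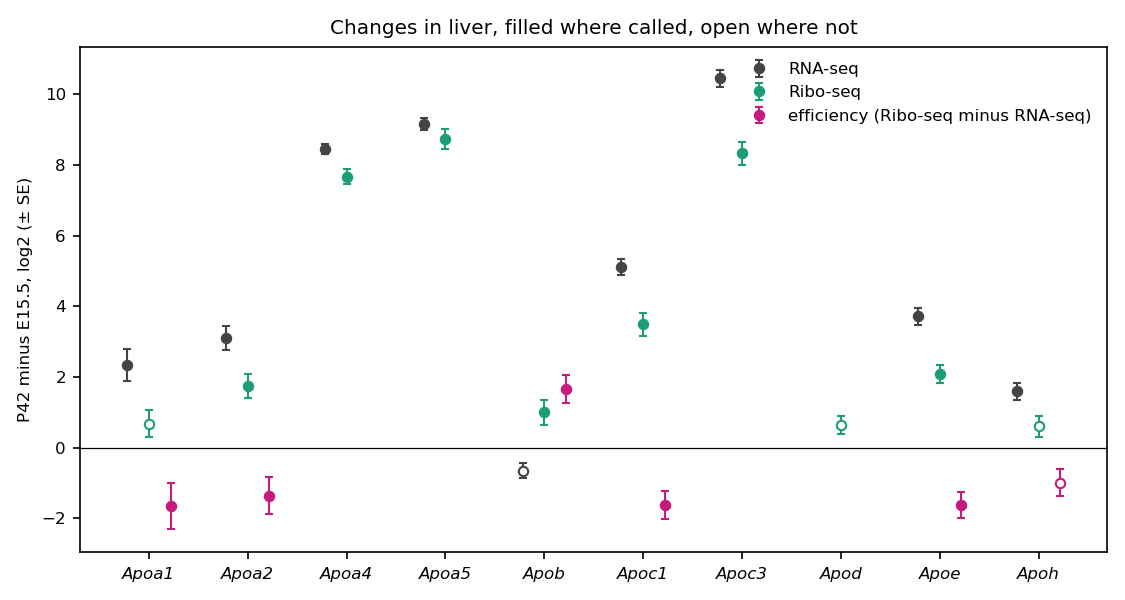
Changes in liver from E15.5 to P42 in log2 units, with SE bars, for RNA-seq, Ribo-seq and their difference (efficiency); filled points were called and open points were not. Message changes lie above footprint changes for Apoa1, Apoa2, Apoa4, Apoa5, Apoc1, Apoc3, Apoe and Apoh, and below for Apob, whose efficiency changed by 1.65.

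Footprints per message in liver changed in opposite directions for Apob and for the smaller proteins. Translational efficiency, the footprint level over the message level, was tested for the 6 members with at least 5 TPM of message at each stage. It fell by 1.66 on the log2 scale for Apoa1 (adjusted p = 0.0466), by 1.36 for Apoa2 (adjusted p = 0.0381), by 1.63 for Apoc1 (adjusted p = 0.0015) and by 1.63 for Apoe (adjusted p = 0.000635). For Apob it rose by 1.65 (SE 0.40, adjusted p = 0.00134), and for Apoh the change of -0.99 (SE 0.392, adjusted p = 0.0487) missed the size threshold. Of 6327 genes tested in liver, 19.9% were lower and 3.9% were higher, with a median of -0.30. The calls of Apoe and Apob held under the 4 other scalings tried. That of Apoa2 was lost under 3 of the 4, with -0.77 (adjusted p = 0.286) when listed genes were rescaled to an equal sum, -0.87 (adjusted p = 0.234) with mitochondrially encoded genes left out and -1.07 (adjusted p = 0.114) relative to the median gene. That of Apoc1 was lost under 2, with -1.04 (adjusted p = 0.0703) after the rescaling and -1.13 (adjusted p = 0.0556) without mitochondrially encoded genes. Apoa1 was lost under each of the 4, with -1.63 (adjusted p = 0.0611) under median-of-ratios scaling, and both Apoa1 and Apoa2 were lost without 7 of the 8 liver libraries left out in turn, the exception being replicate 2 of the P42 Ribo-seq group.

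The change of efficiency in liver also moved with exon length over all genes. The 262 genes with 10000 exon bases or more had a median change of 0.44, and 44 of them were called higher, whereas the 1144 genes with under 2000 exon bases had a median of -1.04. Apob, with 13934 exon bases, lay at the 98.5th percentile of the long genes. Apoe, with 2138 exon bases, lay at percentile 7.6 of the 1176 genes with 2000 to under 3000 bases, whose median was -0.56. Apoa1, Apoc1, Apoa2 and Apoh, all under 2000 bases, lay at percentiles 22.6, 23.7, 33.7 and 52.4 of their class. These length classes were set after the data were seen, and the part of length in the members' changes was not tested.

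**Figure D3:**
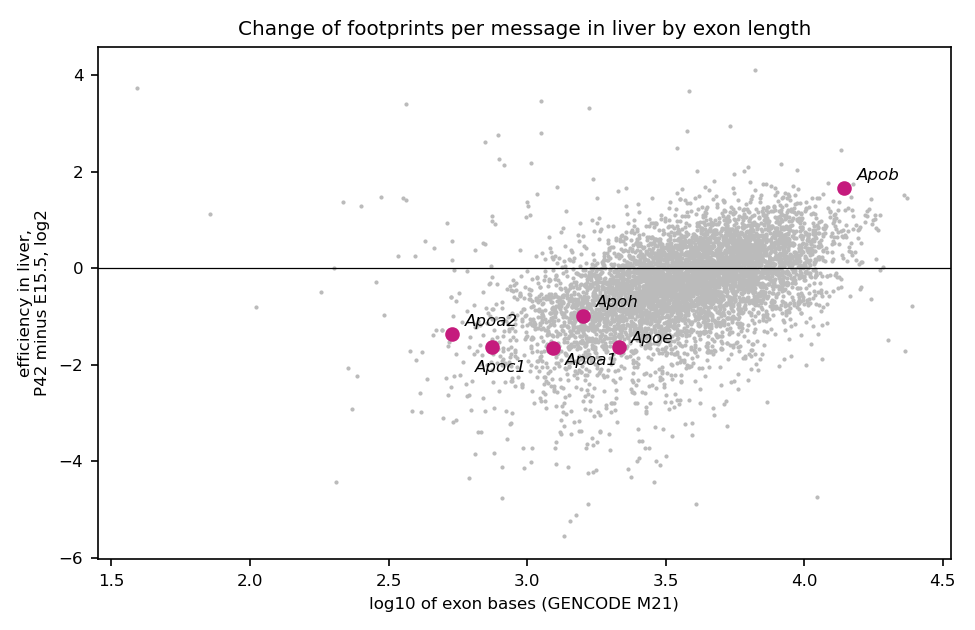
Change of footprints per message in liver, P42 minus E15.5 in log2 units, against the log10 of exon bases; grey points are all genes tested with an annotated length and red points the 6 members tested. The cloud rises with length, Apob lies near the upper edge of the long genes and the other 5 members lie among the shorter genes, all below 0.

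The level of footprints per message is a description here, since footprints fall on coding bases only and the values are over whole exons. At E15.5 all 6 members with 5 TPM of message in liver were in the upper part of the distribution over whole exons, with log2 ratios from 0.32 (SD 0.26) for Apob to 0.86 (SD 0.29) for Apoe, against a median of -0.80 for 9892 genes. Apoe was at percentile 96.5 and Apob at percentile 88.7. At P42 the order had turned, with Apob at 2.02 (SD 0.49), percentile 99.8 of 7009 genes, and Apoe at -0.75 (SD 0.14), percentile 61. Coding bases make up 96.99% of the exon bases of Apob and 43.69% of those of Apoe, against a median of 40.46% over protein-coding genes. With the ratio scaled by that share, the 6 members in E15.5 liver ran from percentile 41.5 (Apob) to 89.2 (Apoe), so that Apob was then in the lower part. In P42 liver Apob was at percentile 92.8 and Apoe at percentile 51.1.

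**Figure D4:**
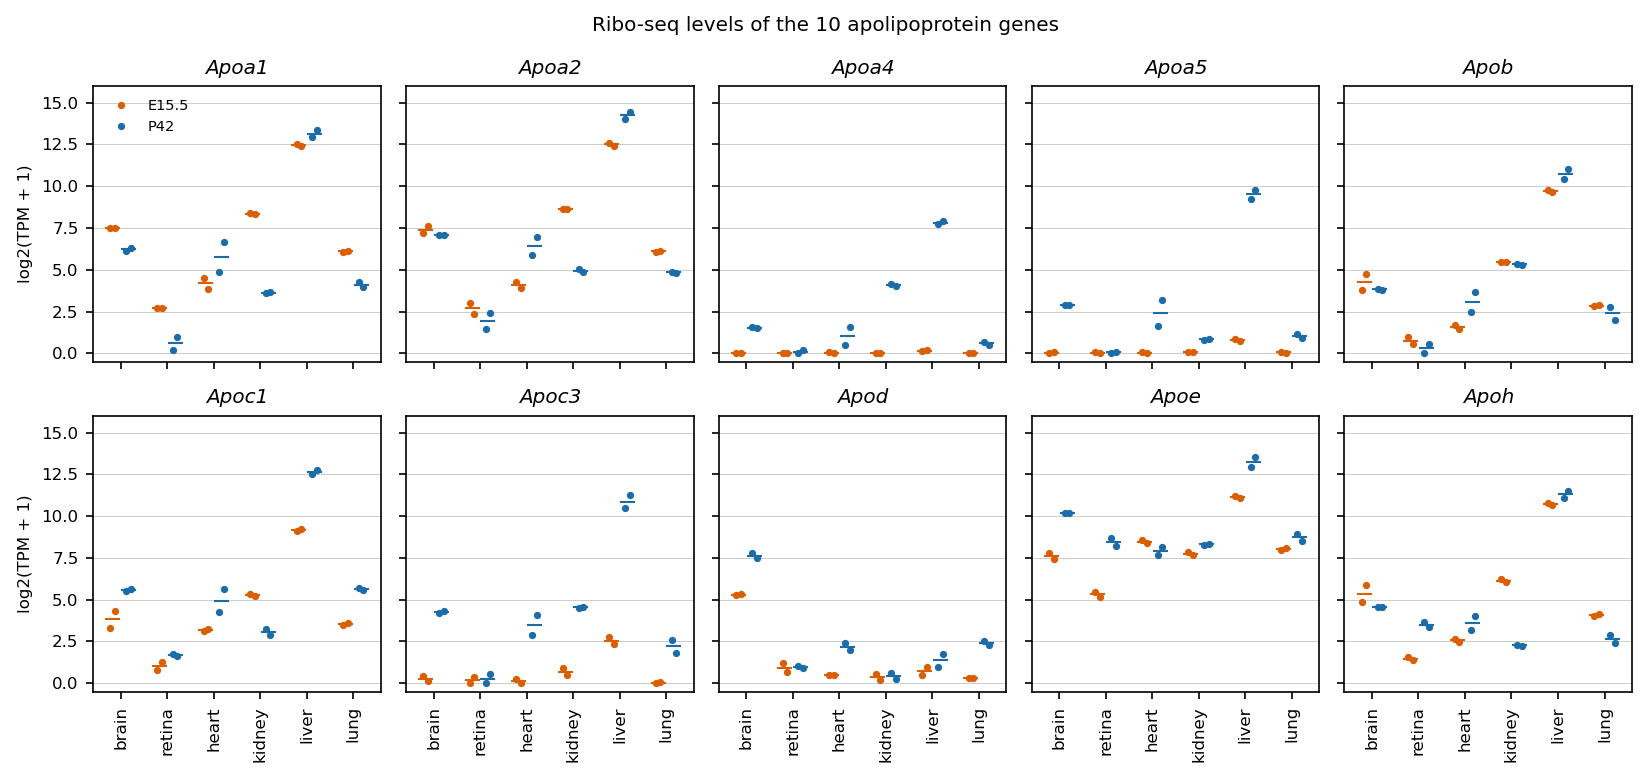
Ribo-seq levels of the 10 members on the log2(TPM + 1) scale in 6 tissues, E15.5 in orange and P42 in blue, with points for the 2 libraries of a group and bars for their mean. Compared with the RNA-seq levels, footprints of liver members are also seen in brain, heart and E15.5 lung. Apoa1 was at 69 and 77.8 TPM in P42 brain and at 66.8 and 68.1 TPM in E15.5 lung.

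Outside liver, many footprints of these genes moved with those of albumin. In E15.5 brain, albumin was at 1001 and 1694 TPM by Ribo-seq and at 0.283 and 0.528 TPM by RNA-seq, and in P42 brain at 491 and 488 and 2.44 and 22.8 TPM. In P42 heart it was at 202 and 501 TPM by Ribo-seq and 0.081 and 0.392 TPM by RNA-seq. The footprints thus stood at 2.51%, 0.728% and 0.523% of liver's in these 3 groups, and the messages at 0.00126%, 0.0137% and 0.000256%. The members followed in near-constant proportion. Relative to albumin, and setting liver of the same stage to 1, the 5 members at 1 TPM or more in E15.5 brain lay between 0.918 (Apob) and 1.25 (Apoa1) by Ribo-seq, leaving aside Apoe and Apod. The 8 such members in P42 brain lay between 0.946 (Apoa2) and 1.28 (Apoc3), and the 8 in P42 heart between 0.873 (Apoh) and 1.35 (Apoa1). The hepatocyte list was broadly present in these footprints, with 24 or 25 of 26 markers at 1 TPM or more in P42 heart by Ribo-seq and 3 of 26 by RNA-seq. E15.5 lung also held more albumin by footprint, at 1.02% of liver's, than by message, at 0.096%. There 23 of 26 hepatocyte markers were at 1 TPM or more by Ribo-seq and 9 to 15 by RNA-seq. The 5 such members in E15.5 lung lay between 0.739 (Apob) and 1.87 (Apoc1) by Ribo-seq. What put hepatocyte footprints into these libraries was not tested.

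**Figure D5:**
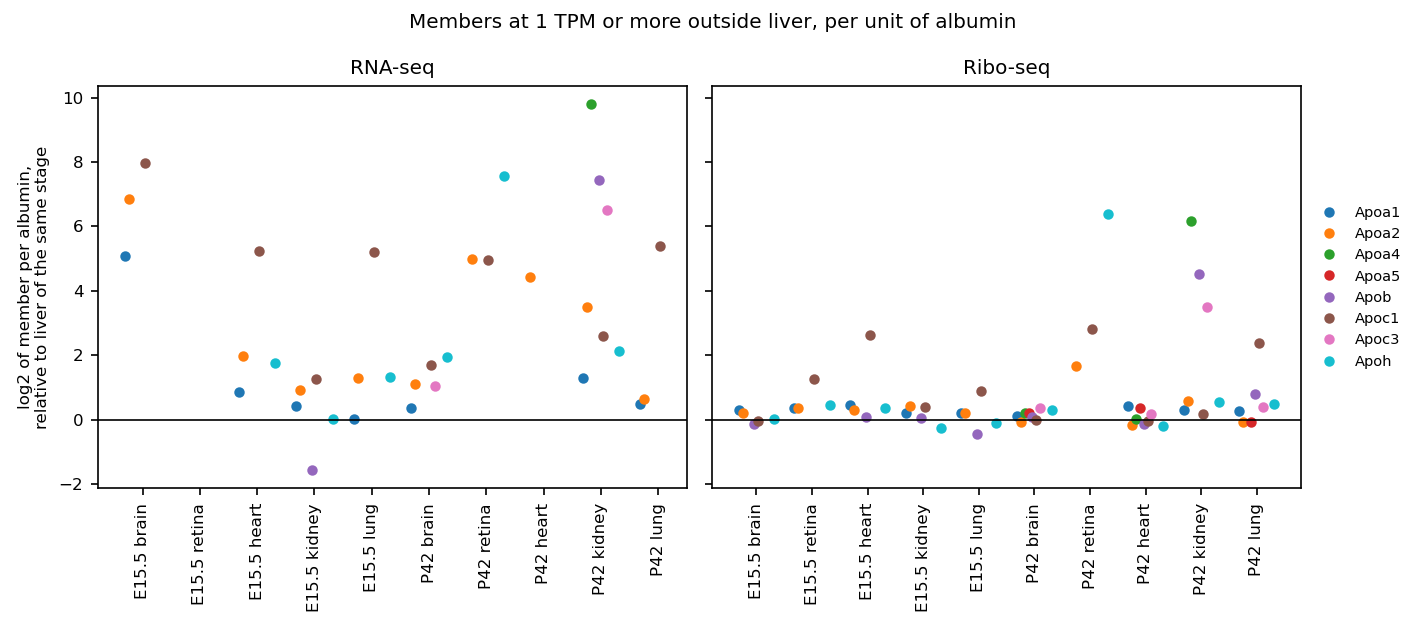
Level of each member at 1 TPM or more outside liver, divided by albumin and set relative to liver of the same stage, on a log2 axis; Apoe and Apod are left out, and E15.5 retina has no RNA-seq value because albumin is listed at 0 there. In Ribo-seq of brain and heart most points lie near 0. Apoa4, Apob and Apoc3 in P42 kidney, Apoh and Apoc1 in P42 retina, and Apoc1 in E15.5 heart and P42 lung lie well above.

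Heart shows the contrast between the assays. By RNA-seq 3 of 5 tested members were lower at P42 (background 74.6% of 12780 genes) and Apod was higher (background 2.73%). Apoa1 was at 4.56 and 3.94 TPM at E15.5 and 0.128 and 0.0286 TPM at P42, a change of -2.28 (SE 0.413, adjusted p = 2.47e-06), Apoc1 changed by -2.73 and Apoa2 by -1.63. Relative to the median gene, which changed by -1.61, the changes of Apoa1 (-0.67, adjusted p = 0.162) and Apoa2 (-0.02, adjusted p = 0.964) were not called, and that of Apoc1 was. By Ribo-seq 8 of 9 tested members were higher and none was lower (background 10.2% higher and 50.6% lower of 12521 genes). Apoa2 footprints went from 18.5 and 14.3 to 57.6 and 126 TPM, a log2 change of 2.32 (SE 0.331, adjusted p = 3.54e-06), and Apoc3 from 0.196 and 0 to 6.47 and 16.2 TPM, a log2 change of 3.37 (SE 0.331, adjusted p = 3.07e-08). Replicate 2 of the P42 heart Ribo-seq group was the higher one for each of Apoa1, Apoa2, Apoa4, Apoa5, Apob, Apoc1, Apoc3, Apoe and Apoh and for albumin. Without it Apoa1 (0.68, adjusted p = 0.0557), Apob (0.87, adjusted p = 0.0363) and Apoh (0.60, adjusted p = 0.105) were no longer called. Apoh was also not called without replicate 2 of the E15.5 heart Ribo-seq group (0.93, adjusted p = 0.0287). Apod footprints, at 0.386 and 0.432 TPM at E15.5 and 4.2 and 2.92 TPM at P42, rose with the message and without albumin's replicate pattern.

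In kidney the members split by stage. Of 8 tested by RNA-seq, 4 were lower at P42 (Apoa1, Apoa2, Apoc1 and Apoh; background 43.9% of 14129 genes) and 3 were higher (Apoa4, Apoc3 and Apoe; background 13.1%). By Ribo-seq the same 4 were lower (background 40.2% of 12940 genes) and Apoa4 and Apoc3 were higher (background 12.2%). Apoa1 went from 348 and 216 to 4.81 and 4.27 TPM by RNA-seq, a log2 change of -5.64 (SE 0.43, adjusted p = 7.26e-15), and Apoh from 59 and 31.1 to 0.984 and 1.02 TPM, a log2 change of -4.46 (SE 0.243, adjusted p = 2.82e-19). Albumin stood at 4.7% of its liver level in E15.5 kidney and 0.00814% in P42 kidney by RNA-seq. Per albumin and relative to liver the 4 members lay between 1.02 (Apoh) and 2.4 (Apoc1) in E15.5 kidney, and in P42 kidney at 2.46 (Apoa1), 4.35 (Apoh), 6.11 (Apoc1) and 11.2 (Apoa2). By RNA-seq all 7 adrenal cortex markers were also at 1 TPM or more in E15.5 kidney, and 1 of 7 in P42 kidney. Their sums were 578 to 990.4 TPM at E15.5 and 1.69 to 2.07 TPM at P42, and the part of other tissue in the result was not tested.

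The members that rose in kidney did not follow albumin. Apoa4 was at 0 and 0.0423 TPM at E15.5 and 31.2 and 25.5 TPM at P42 by RNA-seq, a log2 change of 4.84 (SE 0.164, adjusted p = 5.8e-26), with footprints at 17.1 and 15.5 TPM at P42 and a footprint change of 4.11. Apoc3 was at 0 and 0.0758 TPM and then 40.6 and 34.7 TPM by RNA-seq, a log2 change of 5.22 (SE 0.237, adjusted p = 8.15e-22), and its footprints changed by 3.84 to 21.5 and 22.9 TPM. P42 kidney was second to liver for both genes in both assays, with no overlap with the next tissue. Relative to albumin, Apoa4 in P42 kidney was 887 times its liver value by RNA-seq and 71.9 times by Ribo-seq, and Apoc3 was 90.3 and 11.4 times. The 8 proximal tubule markers summed to 98.5 to 162 TPM in E15.5 kidney and 46532 to 67243 TPM in P42 kidney. The 9 enterocyte markers, of which 2 of 9 were at 1 TPM or more, summed to 107 to 116 TPM at P42. Their part in the result was not tested.

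In E15.5 kidney Apob carried more footprints per message than in liver. It was at 13.2 and 8.1 TPM by RNA-seq and 44 and 42.7 TPM by Ribo-seq, and its efficiency was higher than in E15.5 liver by 1.63 (SE 0.401, adjusted p = 0.00493), where 2.86% of 9088 genes were higher. Relative to albumin and to liver, its message in E15.5 kidney was at 0.338 and its footprints at 1.04. Albumin footprints there were at 4.98% of liver's, and the part of hepatocyte footprints in this difference was not tested. The log2 ratio of Apob in E15.5 kidney was 1.66 and 2.26 by same-numbered libraries. Listed genes held 817226 and 489440 TPM in the 2 RNA-seq libraries of that group. At P42 Apob was at 4.64 and 7.2 TPM by RNA-seq and 40.1 and 38.8 TPM by Ribo-seq, a log2 ratio of 2.55 (SD 0.42). Apob was not called in kidney, with a change of -0.74 (SE 0.209, adjusted p = 0.0015) by RNA-seq and -0.13 (SE 0.351, adjusted p = 0.738) by Ribo-seq. Apoe rose from 239.6 and 161 to 387 and 412 TPM by RNA-seq, a log2 change of 1.02 (SE 0.242, adjusted p = 0.000233). That call was lost without replicate 2 of the E15.5 group (0.73, adjusted p = 0.0173), without replicate 2 of the P42 group (0.98, adjusted p = 0.0036) and under 2 scalings, and the footprint change of 0.56 (SE 0.254, adjusted p = 0.0537) was not called. No efficiency change between stages was called for the 4 members tested in kidney (background 7% in either direction), none of which had an unadjusted p below 0.05 with limma.

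In lung, Apoc1 and Apod were higher at P42 by RNA-seq (2 of 6 tested; background 10.1% of 14292 genes) and Apoh was lower (background 53.5%). Apoc1 went from 15.1 and 12.7 to 56.7 and 49.2 TPM, a log2 change of 1.86 (SE 0.226, adjusted p = 4.33e-09), and its footprints from 10.3 and 11.4 to 50.5 and 47.7 TPM, a log2 change of 2.08 (SE 0.334, adjusted p = 2.16e-05). P42 lung was second to liver for Apoc1 message, and relative to albumin it stood at 42.4 times the liver value by RNA-seq and 5.17 times by Ribo-seq. Albumin message itself was uneven there, at 15.5 and 1.28 TPM, and Apoc1 per 100 TPM of albumin was at 366 and 3845 in the 2 RNA-seq libraries. The 10 macrophage markers, all at 1 TPM or more in lung, summed to 324 to 354 TPM at E15.5 and 5441 to 6618 TPM at P42 by RNA-seq, and their part in the change of Apoc1 was not tested. By Ribo-seq 3 of 8 members were higher (Apoc1, Apoc3 and Apod; background 18.6% of 13261 genes) and 3 were lower (Apoa1, Apoa2 and Apoh; background 22.8%). Albumin footprints in lung were at 549.9 and 540.2 TPM at E15.5 and 114 and 84 TPM at P42. Apoa1 footprints fell with them, from 66.8 and 68.1 to 18.2 and 14.5 TPM, a log2 change of -1.99 (SE 0.384, adjusted p = 0.000163), whereas its message change of -0.73 (SE 0.454, adjusted p = 0.132) was not called. The fall of Apoh by RNA-seq, -1.21 (SE 0.248, adjusted p = 3.87e-05), started from 2.55 and 1.97 TPM and was not called relative to the median gene (-0.11, adjusted p = 0.72) or without replicate 2 of the P42 group (-0.97, adjusted p = 0.00354). Apoc3 footprints were at 5.04 and 2.53 TPM in P42 lung, where its message was at 1.75 and 0.0352 TPM. Relative to albumin these footprints lay at 1.33 times the liver value. The proximal tubule markers were uneven in the P42 lung Ribo-seq libraries, with sums of 35.6 to 1515 TPM. Neither the part of these markers nor that of hepatocyte footprints in the rise of Apoc3 footprints was tested. No efficiency change was called for the 2 members tested in lung (background 40.8%), with 0 at an unadjusted p below 0.05.

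Apoe was the member with high levels in every tissue, and it rose in the neural tissues as well as in liver. In brain it went from 176 and 156 to 2761 and 2457 TPM by RNA-seq, a log2 change of 3.96 (SE 0.244, adjusted p = 3.25e-15), and from 224 and 172 to 1164 and 1148 TPM by Ribo-seq, a change of 2.55 (SE 0.257, adjusted p = 4.68e-08). In retina it went from 69.5 and 51.8 to 576 and 741 TPM by RNA-seq, a log2 change of 3.42 (SE 0.243, adjusted p = 2.88e-14), and by 3.16 (SE 0.258, adjusted p = 1.41e-09) by Ribo-seq. The changes in brain and retina did not differ by a called amount, at 0.54 (SE 0.35, adjusted p = 0.207) by RNA-seq and -0.61 (SE 0.356, adjusted p = 0.214) by Ribo-seq. The lowest Apoe level of all groups was that of E15.5 retina, and at P42 brain came second to liver. In heart its RNA-seq change of -0.25 (SE 0.241, adjusted p = 0.326) was not called and ran from -0.43 to 1.77 over the scalings tried. That in lung was 0.49 (SE 0.244, adjusted p = 0.061), also not called. The 10 markers of astrocytes and Mueller glia summed to 453 to 477 TPM in E15.5 brain and 2644 to 2999 TPM in P42 brain, and to 701 to 704 and 2517 to 2645 TPM in retina, and their part in the rise was not tested.

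Footprints of Apoe rose less than its message in brain. Efficiency there changed by -1.41 (SE 0.367, adjusted p = 0.00186), where 2.41% of 9952 genes were lower. Apoe went from percentile 99 of the footprint to message ratio at E15.5 to percentile 42.4 at P42. Hepatocyte footprints were present in these brain libraries, with those of albumin at 2.51% of liver's at E15.5 and 0.728% at P42. Per 100 TPM of albumin, Apoe footprints were at 14.7 in brain and 4.23 in liver at E15.5. At P42 they were at 236 in brain and 14.7 in liver. The part of hepatocyte footprints in the Apoe footprint levels of brain, and in their change, was not tested. In retina the efficiency change of -0.26 (SE 0.366, adjusted p = 0.627) was not called (background 14.1% in either direction, 0 of 1 member at an unadjusted p below 0.05), nor was that in heart, -0.30 (SE 0.364, adjusted p = 0.584) (background 16%, 0 of 1). Whether brain and retina differ in this change was not tested. Between tissues at P42, the footprints per message of Apoe were called lower than in lung in brain, retina and liver. The log2 difference from lung was -1.42 (SE 0.365, adjusted p = 0.00428) in brain (background 14.3%), -1.12 (SE 0.365, adjusted p = 0.00588) in retina (background 58.1%), and -1.02 (SE 0.367, adjusted p = 0.0406) in liver (background 14.8%). The value in retina is close to the shift of all genes, whose median ratio was -1.69 in retina and -0.54 in lung, and Apoe stood at percentile 84.1 in retina and 76.6 in lung. At E15.5 the difference of retina from liver was -1.48 (SE 0.368, adjusted p = 0.00044), but most genes were lower there too (background 63.1%).

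Apod, the lipocalin member, was the only one of the 10 that was highest in brain. Brain was its highest tissue at both stages, at 58.2 and 59.7 TPM at E15.5 and 232 and 284 TPM at P42 by RNA-seq, a log2 change of 2.10 (SE 0.206, adjusted p = 1.44e-10). By Ribo-seq it went from 37.4 and 39.2 to 219 and 178 TPM, a log2 change of 2.33 (SE 0.251, adjusted p = 1.18e-07), and its efficiency change of 0.23 (SE 0.323, adjusted p = 0.594) was not called. In retina it was at 1.51 and 1.1 TPM and then 1.58 and 1.74 TPM by RNA-seq, a log2 change of 0.21 (SE 0.204, adjusted p = 0.354). The change in brain was larger than that in retina by 1.89 (SE 0.306, adjusted p = 1.87e-05) by RNA-seq (background 11.5% of 17171 genes) and 2.28 (SE 0.361, adjusted p = 8.25e-05) by Ribo-seq (background 11.3% of 16715). Apod also rose in lung, from 0.263 and 0.487 to 7.86 and 3.37 TPM by RNA-seq, a log2 change of 2.18 (SE 0.212, adjusted p = 3.01e-11), and in heart, from 0.289 and 0.218 to 3.23 and 3.23 TPM, a log2 change of 1.76 (SE 0.215, adjusted p = 5.82e-10). In brain the 8 oligodendrocyte markers summed to 122 to 138 TPM at E15.5 and 4942 to 6447 TPM at P42, and the 7 fibroblast and meningeal markers to 417 to 456 and 73.6 to 121 TPM. The part of either list in the rise of Apod was not tested.

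Of the 6 members tested in brain by RNA-seq, 3 were higher at P42 (Apoe, Apod and Apoc1; background 11.7% of 14449 genes) and none was lower (background 36%). Apoc1 was at 1.19 and 1.28 TPM at E15.5 and 5.72 and 6.62 TPM at P42, a change of 1.68 (SE 0.227, adjusted p = 9.39e-08), and the macrophage markers, which microglia share, summed to 151 to 152 TPM at E15.5 and 557 to 640.4 TPM at P42. Their part in the change was not tested. By Ribo-seq 5 of 9 members were higher in brain (background 20.2% of 13312 genes) and Apoa1 was lower (background 17.7%). Of these, Apoa5 at 6.38 and 6.29 TPM, Apoc3 at 17.2 and 18.7 TPM and Apoc1 at 44.8 and 48.5 TPM in P42 brain lay at 1.16, 1.28 and 0.996 times the liver value relative to albumin. Their RNA-seq levels in P42 brain were 0 and 0.348, 1.69 and 1.2 and 5.72 and 6.62 TPM. Apoa1 footprints in brain, which fell, lay at 1.25 times the liver value relative to albumin at E15.5 and 1.10 times at P42. Apoa1 and Apoa2 were uneven between the P42 brain RNA-seq libraries, at 1.39 and 6.66 TPM and 4.87 and 12.9 TPM, and replicate 2, the higher one, was also higher for albumin and for the 8 choroid plexus markers, which ranged from 267 to 4417 TPM.

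In retina 2 of 5 members were higher at P42 by RNA-seq (Apoe and Apoh; background 18.6% of 14015 genes) and none was lower (background 24.7%). By Ribo-seq the same 2 were higher (background 21.3% of 11974 genes) and Apoa1 was lower (background 16.2%). Apoa1 footprints fell from 5.51 and 5.58 to 0.151 and 0.956 TPM, and those of albumin from 49.0 and 31.9 to 0.744 and 5.84 TPM. The part of hepatocyte footprints in the fall of Apoa1 was not tested. Apoh went from 0.702 and 0.791 to 5.04 and 3.1 TPM by RNA-seq, a log2 change of 1.51 (SE 0.247, adjusted p = 2.19e-06), and from 1.93 and 1.57 to 11.6 and 9.14 TPM by Ribo-seq, a change of 2.05 (SE 0.295, adjusted p = 5.19e-06). Both assays were above their E15.5 libraries with no overlap, and P42 retina was second to liver for Apoh message. In the P42 retina Ribo-seq libraries the proximal tubule markers summed to 1.77 to 519 TPM, and their part in the rise of Apoh was not tested. Albumin in P42 retina was at 0.167 and 1.24 TPM by RNA-seq and 0.744 and 5.84 TPM by Ribo-seq, levels too low and uneven for a firm fold. Per 100 TPM of albumin, Apoh was at 3023 and 249.8 by RNA-seq and 1564 and 157 by Ribo-seq, where liver was at 3.06 and 3.81. The change of Apoh in brain was smaller than that in retina, with a difference of brain from retina of -1.14 (SE 0.371, adjusted p = 0.0128) by RNA-seq (background 25.6%), and -2.83 (SE 0.423, adjusted p = 4.41e-05) by Ribo-seq (background 12.3%). The RNA-seq difference was not called relative to the median gene (-0.89, adjusted p = 0.0502), under median-of-ratios scaling (-0.74, adjusted p = 0.0421), or without replicate 1 of the P42 brain group (-0.78, adjusted p = 0.11) or replicate 1 of the P42 retina group (-0.86, adjusted p = 0.0894).

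After liver, the order of the tissues differed between members. For Apoa1, Apoa2, Apob, Apoc1 and Apoh, kidney came second at E15.5 in both assays, and none of these second places overlapped with the next tissue. At P42 the second place by RNA-seq was kidney for Apoa1, Apoa2, Apoa4, Apob and Apoc3, lung for Apoc1 and Apoa5, retina for Apoh and brain for Apoe. The second places of Apoa1 and Apoa5 overlapped with the next tissue, and Apoa5 was below 1 TPM in every RNA-seq library outside liver. By Ribo-seq at P42, brain was second for Apoa1, Apoa2, Apoa5, Apoe and Apoh, kidney for Apoa4, Apob and Apoc3, and lung for Apoc1. Those of Apoa1, Apoa5 and Apoc1 overlapped with the next tissue. In P42 brain the footprints of Apoa1, Apoa2, Apoa5 and Apoh lay at 1.10, 0.946, 1.16 and 1.22 times the liver value relative to albumin. The part of hepatocyte footprints in the order by Ribo-seq was not tested.

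The patterns of the members over the 24 RNA-seq libraries were described by Pearson's r on log2(TPM + 1) against 15540 other genes. The libraries are shared by all genes and liver dominates most patterns, so these values are a description. Apoa1 was most like Ambp (0.993) and Serpina1b (0.991), Apoa2 like Serpina1b (0.99), Apob like Fga (0.992), a fibrinogen chain, and Apoh like F2 (0.992), which encodes prothrombin. Apoa5 was most like the carboxylesterase gene Ces3a (0.999) and the cytochrome P450 genes Cyp2c37 (0.999) and Cyp2c67 (0.998), and Apoc3 like Cyp2a4 (0.986) and Cyp2d9 (0.977), which belong to the same superfamily. Apoa4 was most like Fam25c (0.995), 2010003K11Rik (0.994) and Slc22a26 (0.993), and Apoc1 like Fabp1 (0.964), the liver fatty acid binding protein gene. Apod was most like Ccdc190 (0.958), Bcan (0.951), the brevican gene, and Hepacam (0.95), which encodes a glial adhesion protein. Apoe had the weakest partners, Gls2 (0.91), Cldn14 (0.897) and Vipr1 (0.883). Between members, r ran from -0.436 for Apob with Apod to 0.99 for Apoa1 with Apoa2. In the chromosome 9 group it was 0.979 for Apoa4 with Apoc3, 0.916 for Apoa5 with Apoc3 and 0.575 for Apoa1 with Apoa4, and for the neighbours Apoc1 and Apoe it was 0.757.

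Other genes of lipoprotein biology were followed as 6 lists, described by their counts. The background for the counts in liver was 13.4% higher and 47% lower by RNA-seq, and 10.3% higher and 44% lower by Ribo-seq. In liver the further apolipoprotein genes rose for the most part, with 13 tested by RNA-seq, 9 higher and 1 lower, and 13 tested by Ribo-seq, 7 higher and 3 lower, a median RNA-seq change of 2.41 where that of all genes was -0.89. Apon, encoding apolipoprotein N, went from 2.24 ± 0.746 to 282 ± 26.1 TPM by RNA-seq and changed by 6.47 by RNA-seq and 6.5 by Ribo-seq. Apol9b rose by 6.90 by RNA-seq and 3.98 by Ribo-seq, and Apol8 fell, with -6.40 by RNA-seq and -3.92 by Ribo-seq. Of the genes of particle assembly and secretion there were 16 tested by RNA-seq, 7 higher and 3 lower, and 16 tested by Ribo-seq, 6 higher and 1 lower, with an RNA-seq median of 0.38. Tm6sf2, needed to load very-low-density lipoprotein with lipid, changed by 3.68 by RNA-seq and 2.79 by Ribo-seq, and Sar1b, a GTPase of the vesicles that export these particles, by 2.41 by RNA-seq and 1.5 by Ribo-seq. Soat1, a cholesterol acyltransferase, changed by -3.03 by RNA-seq and -2.70 by Ribo-seq.

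Among the lipases and their regulators there were 11 tested by RNA-seq, 7 higher and 2 lower in liver, and 11 tested by Ribo-seq, 5 higher and 3 lower, with an RNA-seq median of 1.66. Lcat, the cholesterol-esterifying enzyme that apolipoprotein A-I activates, went from 87.6 ± 3.81 to 624 ± 9.9 TPM by RNA-seq and changed by 2.82 by RNA-seq and 1.62 by Ribo-seq. Pnpla2, an intracellular triglyceride lipase, changed by 3.33 by RNA-seq and 2.45 by Ribo-seq. Receptors and clearance genes stood near the shift of all genes in liver, with 13 tested by RNA-seq, 1 higher and 7 lower, and 11 tested by Ribo-seq, 1 higher and 5 lower, and an RNA-seq median of -1.01. Sorl1 and Sort1, sorting receptors, changed by -2.33 by RNA-seq and -1.42 by Ribo-seq, and by -1.94 by RNA-seq and -1.49 by Ribo-seq, in that order, while Lsr, a receptor for remnants, rose by 2.45 by RNA-seq and 1.44 by Ribo-seq. The sterol efflux list was split, with 8 tested by RNA-seq, 3 higher and 4 lower, and 8 tested by Ribo-seq, 3 higher and 5 lower, and an RNA-seq median of -0.79. Abcg5, which exports sterols into bile, rose by 5.43 by RNA-seq and 5.36 by Ribo-seq, and 2 other transporter genes fell, Abcg4 with -5.00 by RNA-seq and -3.20 by Ribo-seq and Abca7 with -4.28 by RNA-seq and -2.59 by Ribo-seq. The erythroid markers given above fell over the same interval.

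The list of transcriptional regulators of these genes had 21 tested by RNA-seq, 10 higher and 1 lower in liver, and 22 tested by Ribo-seq, 11 higher and 1 lower, with an RNA-seq median of 0.81. Nr1h4, the bile acid receptor gene, went from 14 ± 1.41 to 157 ± 5.18 TPM by RNA-seq and changed by 3.39 by RNA-seq and 3.34 by Ribo-seq. Nr0b2, a corepressor of nuclear receptors, changed by 3.22 by RNA-seq and 2.43 by Ribo-seq and Cebpb by 3.79 by RNA-seq and 1.34 by Ribo-seq. In kidney, where Apoa4 and Apoc3 rose, Nr1h4 also rose, by 4.95 by RNA-seq and 4.67 by Ribo-seq, and Apoc2, the cofactor of lipoprotein lipase, fell like Apoa1 and Apoh, with -5.30 by RNA-seq and -5.20 by Ribo-seq. In the neural tissues Clu, also called apolipoprotein J, rose with Apoe. It went from 53.3 ± 0.857 to 774 ± 95.7 TPM in brain, a change of 3.83 by RNA-seq and 4.15 by Ribo-seq, and from 8.35 ± 0.171 to 487 ± 34.1 TPM in retina, a change of 5.70 by RNA-seq and 5.81 by Ribo-seq. Lcat rose in brain, by 4.27 by RNA-seq and 2.54 by Ribo-seq, and the apolipoprotein E receptor gene Lrp8 fell there, with -3.00 by RNA-seq and -1.81 by Ribo-seq. The sterol transporter gene Abcg4 rose in retina, by 3.26 by RNA-seq and 2.98 by Ribo-seq. In heart the lipoprotein lipase gene Lpl rose, by 2.37 by RNA-seq and 2.44 by Ribo-seq, and in lung Gpihbp1, which holds that lipase on capillaries, by 3.94 by RNA-seq and 3.88 by Ribo-seq, and the fatty acid receptor gene Cd36 by 4.19 by RNA-seq and 6.64 by Ribo-seq.

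Outside liver the lists are given by RNA-seq as genes higher and lower at P42, to be read against the background of each tissue above. The further apolipoprotein genes counted 2 and 1 of 5 in brain, 2 and 2 of 5 in retina, 0 and 1 of 3 in heart, 3 and 4 of 8 in kidney and 2 and 3 of 7 in lung. Particle assembly and secretion counted 1 and 3 of 13 in brain, 2 and 3 of 14 in retina, 1 and 9 of 13 in heart, 4 and 3 of 16 in kidney and 1 and 7 of 14 in lung. For lipases and their regulators it was 1 and 2 of 7 in brain, 3 and 0 of 7 in retina, 4 and 1 of 6 in heart, 3 and 4 of 11 in kidney and 5 and 1 of 9 in lung. Receptors and clearance genes had 1 and 3 of 13 in brain, 3 and 3 of 12 in retina, 1 and 8 of 11 in heart, 4 and 6 of 15 in kidney and 1 and 6 of 14 in lung. Sterol efflux genes had 0 and 2 of 7 in brain, 4 and 1 of 6 in retina, 0 and 3 of 5 in heart, 0 and 4 of 7 in kidney and 1 and 1 of 6 in lung, and the regulators 3 and 5 of 14 in brain, 5 and 4 of 14 in retina, 1 and 7 of 13 in heart, 8 and 6 of 19 in kidney and 2 and 8 of 14 in lung. In heart the lower calls thus outnumbered the higher ones in 5 of the 6 lists, as they did over all genes, and the exception was the list of lipases and their regulators, with Lpl among the 4 higher genes.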

How the data were processed

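RNA-seq and Ribo-seq libraries of 6 tissues at 2 stages were analysed, with 2 biological replicates in each group, as given by the labels. The authors deposited TPM values over exons, with 1 table per stage and assay (4 tables, 12 libraries each). Per the submitters' processing notes, these came from CASAVA 1.8.2, cutadapt 1.8.1, TopHat2 2.0.14 and featureCounts 1.6.2 on GRCm38.p6. The sources used here name no annotation release, strand setting or set of features behind each TPM total. The depth and the counting precision of the libraries are therefore unknown.

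Of 22055 identifiers, 22029 matched GENCODE M21 with the version dropped. Log2(TPM + 1) values were fitted with limma 3.58.1 (R 4.3.3) with a variance trend and Benjamini-Hochberg adjustment over all genes tested, with 12 residual degrees of freedom per assay and 24 for both. Genes needed 1 TPM in at least 2 libraries of the assay, and a mean of 1 TPM in the tissue for stage tests. Efficiency tests took the difference between assays in 1 model and needed 5 TPM of RNA-seq in each group compared. On simulated data the same code was checked against known changes. Python 3.11.15, numpy 2.4.6, pandas 2.3.3, scipy 1.17.1 and matplotlib 3.10.9 were also used.

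The members and lists were chosen with earlier results of these data known. Named genes were the members, per pathway list up to 3 genes with the largest RNA-seq change in liver and 1 in each other tissue among those called alike in both assays (of which a selection is shown), and the 3 genes most like each member. The alternatives were other pseudocounts, filters, scalings and variance models, each tissue alone, a replicate block, each library left out, and, added after seeing the data, footprint pairs below 5% of the highest tissue left out. Promoters came from RefSeq. Protein sequences were not analysed here.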

Additional observations from a re-analysis of the deposited data

Results flagged for a closer look

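The change from E15.5 to P42 differed between tissues for the members below, by limma tests of the difference itself, each adjusted over all genes tested in the assay. All values are log2 differences between changes.

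Liver was compared with the mean of the other 5 tissues. By RNA-seq the change was larger in liver for Apoa5 (9.05), Apoc3 (8.97), Apoa4 (7.44), Apoc1 (5.27), Apoa1 (3.99), Apoa2 (3.99), Apoh (2.59) and Apoe (1.99). It was smaller in liver for Apod (-1.43), the lipocalin gene whose levels rose in brain, heart and lung. By Ribo-seq the change was larger in liver for Apoa5 (7.35), Apoa4 (6.20), Apoc3 (5.64), Apoc1 (2.68), Apoa2 (2.47), Apoa1 (2.38), Apoh (1.21) and Apob (1.00). The Apob difference sat at the size threshold and was lost when single libraries were left out, as given above. With a pseudocount of 4 TPM the Apod difference by RNA-seq was -0.85 and was not called.

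Brain was compared with retina. By RNA-seq the change was larger in brain for Apod (1.89) and Apoc3 (1.17) and smaller for Apoh (-1.14). With a pseudocount of 4 TPM neither Apoc3 (0.41) nor Apoh (-0.59) was called by RNA-seq. Apoc3 message was at 1.69 and 1.2 TPM in P42 brain. By Ribo-seq the change was larger in brain for Apoc3 (3.87), Apoa5 (2.84), Apod (2.28) and Apoa4 (1.42) and smaller for Apoh (-2.83). That of Apoa4 was 0.53 with a pseudocount of 4 TPM and was not called. Footprints of Apoc3, Apoa5 and Apoa4 in P42 brain stood in nearly the same proportion to albumin as in liver, and the part of hepatocyte footprints in these 3 differences was not tested.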

How the results depend on the processing

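No called change between stages, in level or in efficiency, and no called difference between changes reversed under any alternative. Efficiency calls between tissues at the same stage were not part of this check. Among changes that were not called, some changed sign over the scalings, such as Apob in liver and Apoe in heart by RNA-seq, and the latter was called higher under 2 scalings. Of 39 tissue and gene pairs tested by RNA-seq, 19 were higher and 8 lower at P42, and the lower count was 5 relative to the median gene and 4 with a stricter filter of 5 TPM. By Ribo-seq 27 of 49 pairs were higher and 9 lower. With footprint pairs below 5% of the highest tissue left out, an alternative chosen after seeing the data, 20 pairs were left, of which 11 were higher and 3 lower. Over all genes tested, the share by tissue was 2.73% to 18.6% higher and 24.7% to 74.6% lower by RNA-seq. By Ribo-seq it was 10.2% to 21.3% and 16.2% to 50.6%. Heart gave 8 of the 27 higher footprint pairs, and the part of hepatocyte footprints in these counts was not tested. Efficiency was higher for 1 pair, and for 2 under median-of-ratios scaling and with mitochondrially encoded genes left out. It was lower for 5 pairs, for 3 with a pseudocount of 0.25 TPM, and for 2 both with listed genes rescaled to an equal sum and with mitochondrially encoded genes left out. With a pseudocount of 4 TPM, 0 members had a smaller RNA-seq change in liver than elsewhere. Between brain and retina by RNA-seq, 2 members were higher and 1 lower, against 1 higher and 0 lower with a pseudocount of 4 TPM, 4 and 0 under median-of-ratios scaling, and 0 lower relative to the median gene. The cause was not tested.

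With each library left out in turn, counts by RNA-seq ran from 18 to 21 higher and 7 to 10 lower, and by Ribo-seq from 23 to 28 and 9 to 10. Efficiency was lower for 3 to 6 pairs, with 3 reached without 7 of the 8 liver libraries, and between brain and retina 0 to 1 member was lower by RNA-seq. Pairing by replicate number was not established: across 9147 genes, the deviations of same-numbered RNA-seq and Ribo-seq libraries correlated at -0.257 to 0.369 over the 12 tissue and stage groups. They reached 0.117 to 0.369 in 4 of these, including 0.242 in E15.5 liver and 0.369 in P42 liver. With a replicate block, all 94 called changes and differences of changes of single members kept their direction and their side of the threshold. With a pseudocount of 4 TPM, 16 of the 94 did not reach the threshold. Depth is unknown, so values near 0 TPM cannot be given a detection limit.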
